A study of Mus musculus with 2 samples.

Results

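The glutathione, thioredoxin and NRF2 target genes were taken as 57 of the 34648 gene names on the array. They were chosen by name: the numbered Gsta, Gstk, Gstm, Gsto, Gstp, Gstt and Gstz glutathione transferases, the glutathione peroxidases (Gpx), peroxiredoxins (Prdx), thioredoxins (Txn), thioredoxin reductases (Txnrd) and superoxide dismutases (Sod), together with 15 single genes: Hmox1, Nqo1, Gclc, Gclm, Gsr, Gss, Srxn1, Cat, Nfe2l2, Keap1, G6pdx, Pgd, Mgst1, Mgst2 and Mgst3. The naming rule uses no measured value, although it was written with earlier results of these data known. Of the 57 genes, 49 were measured, meaning that the brightest probe of the gene cleared background by the scanner software's flag with LPS and without, and 8 were above background on neither array. No gene of the set was above background on 1 array alone.

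The study compared CMT93 cells, an established mouse carcinoma line that the labels give as from the rectum of the strain C57BL/ICRF, with and without lipopolysaccharide (LPS), a glycolipid from the surface of Gram-negative bacteria. There was 1 control array and 1 LPS array, each with Cy3-labelled RNA. The control is labelled only as control, and the LPS cells were given 3 µg/mL for 24 h; the submitters' treatment text is identical for both samples and was read as describing the LPS cells. Both groups shared the cell line and the DMEM medium, and no knockout, transgene or second agent is named. The comparison addressed how the cells' transcripts differ after LPS. With 1 array a group there is no replicate, no test and no p-value here, and every difference is one between these 2 arrays.

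Levels are given as scaled intensity, the array's background-corrected spot brightness after both arrays were brought to the same 75th percentile, in arbitrary units. Differences are log2 of LPS over control, so that 1 is a doubling. A level can be compared between the arrays for 1 probe, but not between probes. The error available was that of repeated spots on the slide: over 254 measured probes printed 10 times, the median SD of the log2 difference was 0.14 for the dimmest of 4 equal brightness classes, 0.06 and 0.04 for the classes between, and 0.03 for the brightest. It covers the slide alone, not the culture, the RNA or the labelling. In bulk RNA, fewer cells that express a gene and less of its RNA per cell cannot be told apart.

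The control array had 33091 non-control spots (55.8%) that cleared background and the LPS array had 32448 (54.7%), and no spot was saturated. Lcn2, a secreted iron-binding protein used as a check of the LPS label, had a scaled intensity of 104 without LPS and 63533 with LPS. Its log2 difference of 9.26 was the highest of all measured gene names. Of the 7 genes listed for this check, 6 were measured, with a median of 5.27 and a lowest of 2.10. These genes were listed with earlier results of these data known, so the check is not independent of the data. Epithelial markers fitted the labelled cells: 11 of 12 were measured, although Cdx2, an intestinal transcription factor, was above background on neither array. Their summed scaled intensity was 800747 without LPS and 689789 with LPS, all 11 were lower on the LPS array, and their median difference was -0.25. Of markers for other cells, 3 of 11 for macrophages were measured, with summed intensities of 10101 and 10895. Those were Itgam (7400 and 7903), Csf1r (1551 and 1612) and Cd68 (1048 and 1293). Mrc1 and Mpeg1 cleared background with LPS alone and Ptprc without LPS alone, while Lyz2, Tyrobp, Laptm5, C1qa and Fcgr1 were above background on neither array. Measured markers numbered 2 of 8 for fibroblasts (sums of 223 and 296), 3 of 7 for endothelial cells (6748 and 6860) and 4 of 8 for lymphocytes (4029 and 3953). The part of this lower epithelial marker signal in the differences below was not tested.

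Glutathione and thioredoxin are the main thiol reductants of animal cells. Glutathione peroxidases and glutathione transferases spend glutathione to remove peroxides and to conjugate reactive compounds, peroxiredoxins spend thioredoxin to remove peroxides, and both carriers are restored by reductases that use NADPH. The transcription factor NRF2 (encoded by Nfe2l2) is held in the cytoplasm and targeted for degradation by KEAP1; under oxidative or electrophilic stress it escapes, enters the nucleus and, with a small MAF partner, activates many of these genes through antioxidant response elements. Its activity is set largely at the protein level, which an RNA array does not read.

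The set centred close to equal on the arrays, but a smaller share of it than of all measured gene names lay within 1.2-fold. The median log2 difference of the 49 measured genes was -0.05, against -0.02 for all 20328 measured gene names. Of the 49, 18 (36.7%) were above 0, against 44.6% of all measured gene names. Differences under 1.2-fold were seen for 28 of the 49 (57.1%), against 77.0% of all measured gene names. With LPS, 3 genes read higher by 2-fold or more, namely Mgst1, Gstt1 and Sod2, where 1.46% of all measured gene names were; none was at least 2-fold lower, where 0.571% of all were. At a 1.5-fold limit, Gstt3 joined the higher genes, making 4 (3.59% of all measured gene names passed it), and 7 genes were lower, namely Gstm1, Gstm2, Gstm3, Gstm4, Gstm6, Gstm7 and Gsto2 (2.67% of all). Signals near background vary more, and 38 of the 49 lay at or above the median brightness of measured genes. Among those 38, 1 gene (Sod2) was at least 1.5-fold higher and 3 (Gstm1, Gstm2 and Gstm6) were lower, where the shares of all 10164 gene names that bright were 2.16% and 0.738%.

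Each of the 3 genes past 2-fold was read through the probe shown, as a 30-base stretch from the deposited files with, in capitals, the longest run it shares with a probe of another gene of the set.
Mgst1 probe (2.76): ctaaggagcagactgtacttgtAAAGAGAA
Gstt1 probe (1.82): ctttccccttgAGTCTGGGtaataaactgg
Sod2 probe (1.07): GGCTGGTTtatagtagtgtagagcattgca
That run was 8 bases long in each of the 3 probes shown.

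**Figure D1:**
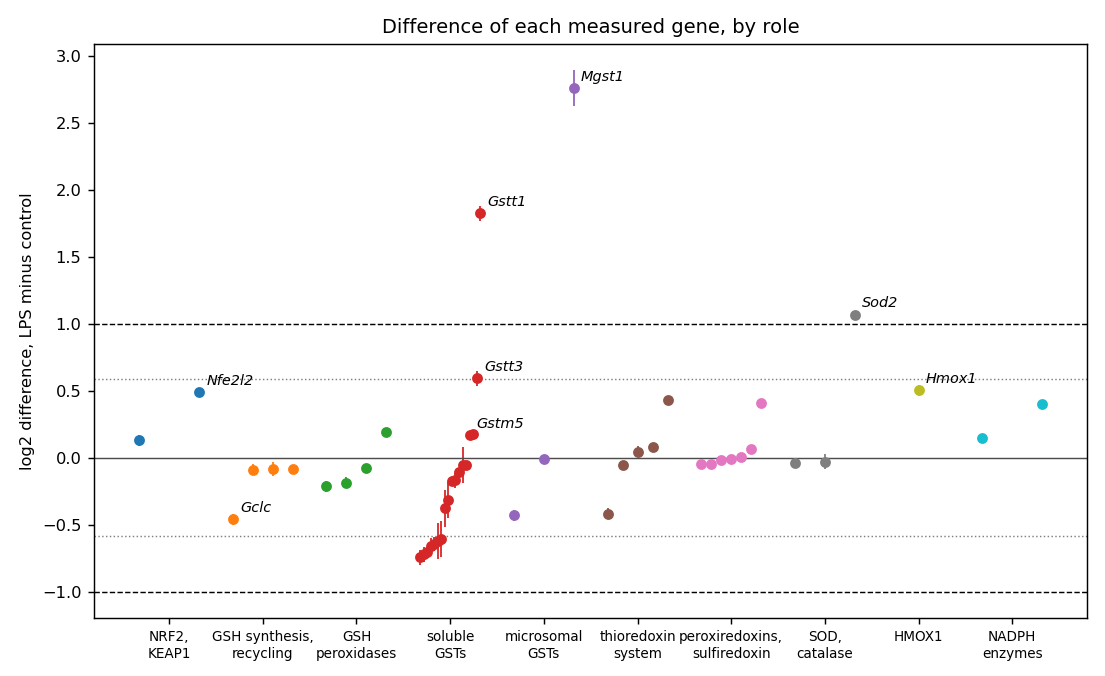
Log2 difference (LPS over control) of each of the 49 measured genes, arranged by role, with bars of 1 SD over repeated spots of like brightness, dotted lines at 1.5-fold and dashed lines at 2-fold. Mgst1 (2.76), Gstt1 (1.82) and Sod2 (1.07) lie highest, and 6 Gstm genes lie between -0.74 and -0.61.

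Nfe2l2 was brighter on the LPS array and its inhibitor Keap1 was near equal. Nfe2l2 had a scaled intensity of 8149 without LPS and 11431 with LPS, a difference of 0.49 (1.40-fold, spot SD 0.03). Keap1, the adaptor that presents NRF2 to a ubiquitin ligase, read 3899 and 4272, a difference of 0.13. Hmox1, which encodes the haem-degrading enzyme haem oxygenase 1, was also higher, at 2638 and 3742 (0.50), and its other measured probe gave 0.57. Nqo1, a quinone reductase widely used as a readout of NRF2, could not be read: its probe stood at 3.91 and 4.27, not well above background on either array. Neither Nfe2l2 nor Hmox1 reached 1.5-fold.

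The promoters of the set were searched for the core of the antioxidant response element, spelled TGACNNNGC, on both strands of 300 bases (250 before and 50 after each RefSeq start, build GRCm38.p6). It was found in 12 of the 50 genes of the set with a promoter in the table (24.0%), against 14.0% of all 27025 genes there; counted by promoter, because a gene can have several, it was in 18.5% of 65 against 12.4% of 32851. The stretches around it are shown for 7 genes that carry it and whose readings run from well above 0 to well below, so that the element can be seen beside the values, with the match in capitals and each written 5′ to 3′ on the strand of its gene.
Mgst1, chr6:138140451-138140499, plus strand, 56 bases before the start: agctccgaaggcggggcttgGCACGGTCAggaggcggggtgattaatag
Nfe2l2, chr2:75704875-75704913, minus strand, 240 bases before the start: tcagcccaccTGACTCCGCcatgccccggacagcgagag
Gstm5, chr3:107895792-107895840, plus strand, 42 bases before the start: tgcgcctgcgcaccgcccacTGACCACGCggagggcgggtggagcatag
Gstm7, chr3:107931715-107931763, minus strand, 129 bases before the start: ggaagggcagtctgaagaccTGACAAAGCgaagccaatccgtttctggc
Gclm, chr3:122245403-122245451, plus strand, 134 bases before the start: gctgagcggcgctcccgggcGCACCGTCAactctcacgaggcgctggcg
Prdx1, chr4:116685446-116685494, plus strand, 133 bases before the start: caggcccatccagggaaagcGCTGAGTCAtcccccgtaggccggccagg
Txnrd1, chr10:82859094-82859142, plus strand, 92 bases before the start: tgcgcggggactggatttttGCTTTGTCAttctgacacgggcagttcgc

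Genes with the motif lay on both sides of 0. The other carriers were G6pdx, Gsta3, Pgd, Sod1 and Srxn1. All 12 were measured, and their differences ran from -0.64 (Gstm7) to 2.76 (Mgst1) with a median of 0.07, and 7 were above 0. The 32 measured genes whose promoters lacked the letters had a median of -0.06, and 9 were above 0. Of all measured gene names, 44.6% were above 0. Whether the motif bears on the differences was not tested. A match is a run of letters, not a bound site, and elements outside this window were not searched.

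Among the enzymes that make and recycle glutathione, Gclc stood apart. Gclc, the catalytic subunit of glutamate-cysteine ligase, the rate-limiting enzyme of glutathione synthesis, read 2071 without LPS and 1506 with LPS, a difference of -0.46 (1.38-fold lower, spot SD 0.04). Its modifier subunit Gclm read 907 and 855 (-0.09). Gss, the glutathione synthetase of the second step, read 1634 and 1536 (-0.09). Gsr, the reductase that restores oxidised glutathione, read 24474 and 23110, and both of its probes gave -0.08. All 4 were thus on the lower side with LPS, and none reached 1.5-fold.

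The glutathione peroxidases differed little. Gpx1, the ubiquitous cytosolic enzyme, read 25494 and 29057 (0.19). Gpx2, the form typical of gastrointestinal epithelium, read 3113 and 2737 (-0.19). Gpx4, which reduces lipid hydroperoxides within membranes, read 59762 and 56747 (-0.07), and Gpx8, a membrane protein of the endoplasmic reticulum, read 2133 and 1840 (-0.21). These 4 lay within 1.2-fold of equal. Gpx3, Gpx5, Gpx6 and Gpx7 did not clear background, with LPS or without, so no fold is given; the brightest reading among them was Gpx3, the plasma form, at 3.27 and 10.8.

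**Figure D2:**
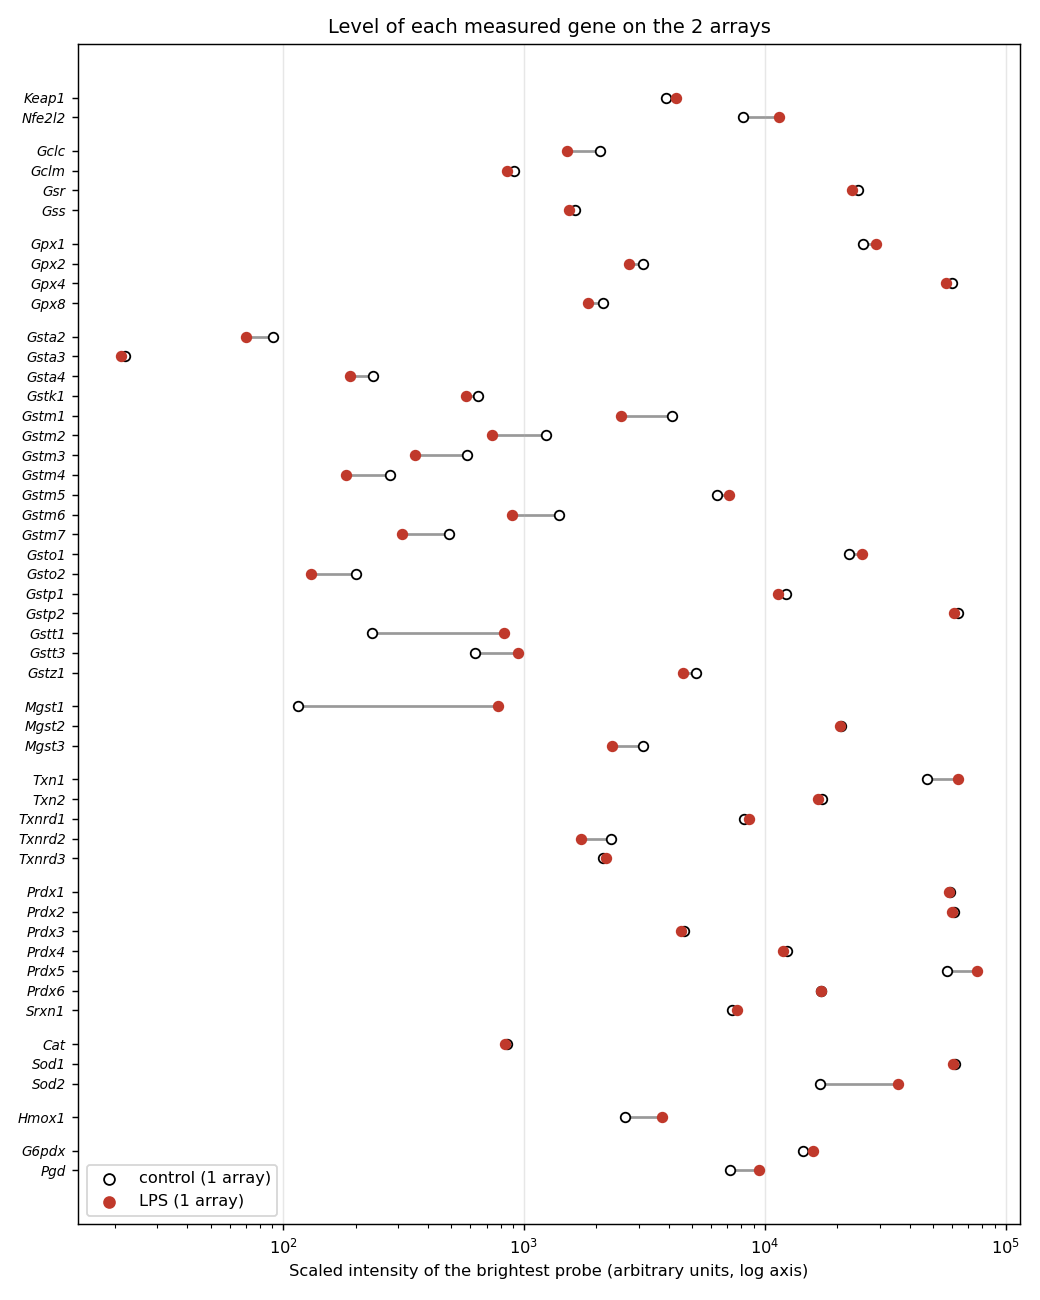
Scaled intensity (arbitrary units, log axis) of each of the 49 measured genes, arranged by role, with open points for the control array and filled points for the LPS array. Pairs of points nearly coincide for most genes and part for Mgst1 (115 and 781), Gstt1 (235 and 830) and Sod2 (17023 and 35704).

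The cytosolic and mitochondrial glutathione transferases held most of the larger differences, in both directions. Of the 18 measured, 2 (11.1%) read higher with LPS by 1.5-fold or more, where 3.59% of all measured gene names did. By as much, 7 (38.9%) were lower, where 2.67% of all were, and the median was -0.24. The mu class (Gstm) accounted for 6 of the 7. Without the 7 Gstm genes, the other 42 measured genes of the set had a median of -0.03. At 1.5-fold, 4 of them (9.52%) were higher and 1 (Gsto2, 2.38%) was lower, the latter near the share of all measured gene names.

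Of the mu class, 6 of 7 genes were lower by near-equal amounts, and Gstm5 was not. Gstm1 read 4118 without LPS and 2526 with LPS, a difference of -0.70 (1.63-fold lower, spot SD 0.04). Gstm2 read 1230 and 734, a difference of -0.74 (1.67-fold lower, spot SD 0.06). Gstm3 read 581 and 353 (-0.72). All of these enzymes conjugate glutathione to electrophiles. Gstm6 read 1403 and 890 (-0.66), Gstm7 487 and 312 (-0.64), and Gstm4, the dimmest, 278 and 182 (-0.61, spot SD 0.14). The 6 genes had a median of -0.68. Gstm5 read 6352 and 7132, a difference of 0.17 (spot SD 0.03).

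The lower readings were seen over several probes a gene. Of 15 measured Gstm probes, 13 were below 0 and 10 were at least 1.5-fold lower. The share over all measured probes was not computed. By brightest probe, 2.67% of all measured gene names were that much lower. Probes of the same gene are not separate observations, and all were read on the same arrays. The second Gstm1 probe gave -0.68. The other measured Gstm2 probes gave -0.59 and -0.98, those of Gstm6 gave -0.48 and -0.53, and the second Gstm7 probe, printed in 9 usable spots, gave -0.58 with an SD of 0.13 over them. Disagreement was found for Gstm3, whose second probe gave -1.50 (331 and 117), and for Gstm4, whose second, dimmer probe gave 0.29 (73.5 and 89.9). The direction of Gstm4 therefore rests on its brightest probe.

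By the coordinates in the deposited files (build mm9), the mu class lies in one run of 145.75 kb on chromosome 3, with Gstm5 first and on the plus strand, then Gstm7, Gstm6, Gstm3, Gstm2, Gstm1 and Gstm4 on the minus strand. The Gstm5 probe is at chr3:107701101-107701160, and the brightest Gstm2 probe at chr3:107784622-107784681. The brightest Gstm3 probe is placed at chr3:107769290-107770549, a span longer than the 60 bases of the probe, and so across more than 1 exon block in that placement. The brightest Gstm1 probe is placed by the files on chromosome 5 (chr5:117082490-117082549), while its other probe lies in the run at chr3:107815595-107815654; the pair read -0.70 and -0.68. The nearest measured named genes outside the run, singled out after their values were seen, were both higher on the LPS array. Eps8l3 on the Gstm5 side read 837 and 2195 (1.39), and Ampd2 beyond Gstm4 gave 0.46 and 0.51 with its 2 probes.

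**Figure D3:**
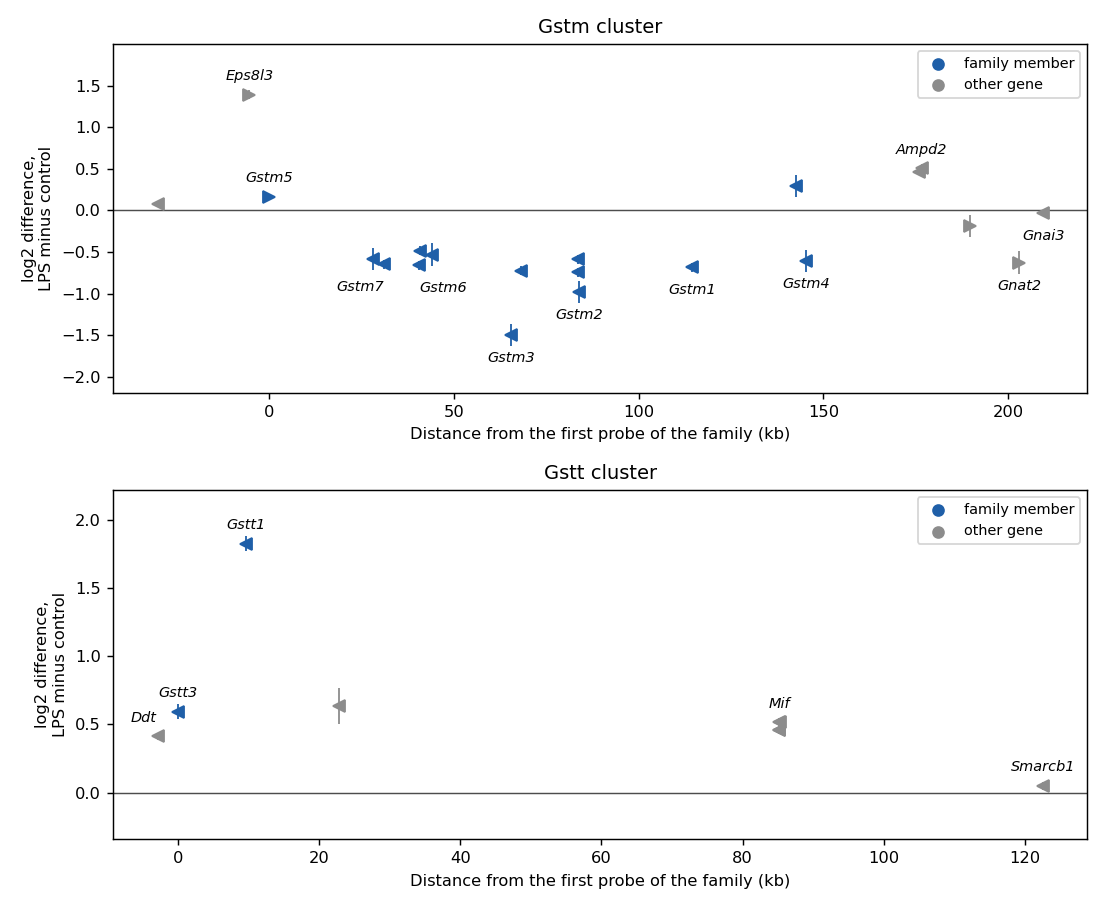
Log2 difference (LPS over control) of measured probes against distance in kb from the first probe of the Gstm run on chromosome 3 and of the Gstt run on chromosome 10 (mm9), with triangles pointing by probe strand. The Gstm probes other than those of Gstm5 and the dimmer Gstm4 probe lie below 0, and Gstt1 and Gstt3 lie above 0.

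Because the mu genes are close relatives, the probes were compared letter by letter. Among 95 pairs of measured Gstm probes for different genes, 4 shared a run of 15 or more bases with at most 1 mismatch, and the longest such run was 22 of the 60 bases. Comparing probe with probe cannot show whether a reading is free of signal from a relative's transcript. The closest pairs are shown as 30-base stretches, with the longest run shared letter for letter in capitals.
Gstm1 probe (-0.70): gtctcatctacaataaagtCTGAAACACAC
Gstm3 second probe (-1.50): acaataaagcCTGAAACACACttgaaacac
Gstm6 dimmest measured probe (-0.53): agatgggcatGCTTTGCTACAgcgctgact
Gstm7 probe (-0.64): tgctggcgagGCTTTGCTACAacgctgact
The closest pair, Gstm1 and Gstm3, read -0.70 and -1.50, and the next, Gstm6 and Gstm7, read -0.53 and -0.64. Over all 70 measured probes of the set, the longest run shared letter for letter between different genes was 13 bases, for Gstp1 with Gstp2 and for Gstp2 with Txnrd2. Whether a probe binds the transcripts of a relative was not tested.

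The theta class (Gstt) went the other way. Gstt1 read 235 without LPS and 830 with LPS, a difference of 1.82 (3.54-fold, spot SD 0.06), which ranked 95 from the highest of the 20328 measured gene names. Gstt3 read 624 and 941, a difference of 0.59 (1.51-fold, spot SD 0.06), just past the 1.5-fold limit; it fell short of it with normexp background correction (0.54) and when probes above background set the percentile. Each has 1 probe, Gstt3 at chr10:75236966-75237025 and Gstt1 at chr10:75246560-75246619 on the minus strand (mm9). Gstt2 and Gstt4, further along the same 58.3 kb, were above background on neither array, with Gstt4 at 4.14 and 19.2. The nearest measured named neighbours, again singled out after their values were seen, were Ddt at 0.41 before Gstt3 and Mif at 0.46 to 0.52 over 4 probes beyond Gstt2.

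The other classes lay lower or near equal. Gsto2 of the omega class read 202 and 131, a difference of -0.62 (1.54-fold lower) at a spot SD of 0.14; it fell short of 1.5-fold with cyclic loess scaling and with normexp background correction (-0.43). Its neighbour Gsto1 on chromosome 19 read 22395 and 25358 (0.18). In the alpha class, Gsta4, which conjugates the lipid peroxidation product 4-hydroxynonenal, read 236 and 189 (-0.32); its 10 spots ran from -0.64 to -0.07 with an SD of 0.15. Gsta2 read 91.0 and 70.0 (-0.38) and Gsta3 22.1 and 21.3 (-0.05), both dim. Another Gsta3 probe, at 24.3 and 16.1, cleared background without LPS alone. The pi class was bright and near equal, Gstp1 at 12216 and 11339 (-0.11) and Gstp2 at 63465 and 61256 (-0.05). Gstz1, an enzyme of tyrosine breakdown, read 5176 and 4598 (-0.17), and the mitochondrial Gstk1 read 648 and 577 (-0.17).

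The microsomal transferases, membrane proteins unrelated in sequence to the soluble enzymes, included the gene that differed most. Mgst1, which conjugates glutathione and reduces lipid peroxides in the endoplasmic reticulum and outer mitochondrial membrane, read 115 without LPS and 781 with LPS. The difference was 2.76 (6.76-fold, spot SD 0.14), 36 from the highest of all measured gene names. Its second probe, at chr6:138104944-138105003 beside the first at chr6:138104846-138104905 (mm9, plus strand), read 80.7 and 621, a difference of 2.94. Mgst2 was equal within the spot SD, at 20690 and 20516 (-0.01). Mgst3 was lower, at 3135 and 2324 (-0.43), and its other probe gave -0.46. The 3 microsomal genes therefore took 3 different directions.

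In the thioredoxin system the cytosolic carrier was higher and its reductase was near equal. Txn1, cytosolic thioredoxin, read 47058 and 63511, a difference of 0.43 (1.35-fold, spot SD 0.03). Txnrd1, the selenoprotein reductase that restores it, read 8166 and 8611 (0.08). The mitochondrial pair read lower or equal: Txn2 had 17278 and 16648 (-0.05), and its reductase Txnrd2 had 2302 and 1722 (-0.42, spot SD 0.04). Txnrd3, a form best known from testis, read 2133 and 2198 (0.04). Txnrd2 had 1 measured probe. The median over its probes was 0.03, but that takes in another probe that was below background on both arrays.

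Of the peroxiredoxins, Prdx5 alone lay outside the others' range by brightest probe. Prdx5, found in mitochondria, peroxisomes and cytosol, read 57200 and 75922, a difference of 0.41 (1.33-fold, spot SD 0.03), and its second probe gave 0.48. Prdx1 gave -0.01, Prdx2 -0.01, the mitochondrial Prdx3 -0.05, the endoplasmic reticulum enzyme Prdx4 -0.05, and Prdx6 0.00. The dimmer measured probes gave -0.12 for Prdx1, 0.22 for Prdx4, and -0.02 and 0.01 for Prdx6. Srxn1, sulfiredoxin, which repairs over-oxidised peroxiredoxins and is a known NRF2 target, read 7330 and 7668 (0.06). The 7 genes had a median of -0.01, and none reached 1.5-fold.

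Sod2, the mitochondrial superoxide dismutase, was the only superoxide dismutase or catalase gene past 1.5-fold. It read 17023 without LPS and 35704 with LPS, a difference of 1.07 (2.10-fold, spot SD 0.03), 270 from the highest of all measured gene names. The cytosolic enzyme Sod1 read 61823 and 60222 (-0.04), and Sod3, the secreted enzyme, was above background on neither array. Cat, the catalase of peroxisomes, read 851 and 833 (-0.03), while its dimmer probe gave 0.20.

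Both enzymes of the pentose phosphate pathway that reduce NADP were on the higher side. G6pdx, glucose-6-phosphate dehydrogenase, the entry step, read 14370 and 15896 (0.15). Pgd, 6-phosphogluconate dehydrogenase, read 7204 and 9490, a difference of 0.40 (1.32-fold, spot SD 0.03). Neither reached 1.5-fold.

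Other genes of these pathways, numbered 100 names outside the set in 5 lists. Of these, 92 were measured on both arrays, with a median of 0.03. By at least 1.5-fold, 7 (7.61%) were higher and 1 (1.09%) lower, where 3.59% and 2.67% of all measured gene names were. The lists were chosen with earlier results of these data known. The 26 measured genes listed as other NRF2 targets had a median of 0.10. Above 0 were 20 (76.9%), against 44.6% of all measured gene names. Some of the 26 lay within 1 spot SD of 0 on either side, such as Hmox2 (0.01), Akr1b10 (0.02) and Cbr1 (-0.04). Among these targets Abcc3, an exporter of glutathione and glucuronide conjugates, read 171 and 539 (1.66). Slc7a11, the cystine importer that feeds glutathione synthesis, read 227 and 468 (1.05). Aldh3a1, an aldehyde dehydrogenase, read 2290 and 3818 (0.74). The lowest were Osgin1 (-0.26) and Ephx1 (-0.24).

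The NRF2 partners and regulators centred near 0, with a median of 0.08 over 13 measured of 14. The small MAF genes Maff, Mafg and Mafk gave 0.12, 0.17 and 0.10, and the repressor Bach1 gave -0.04; these were picked for their part in the pathway after their values were seen. Sqstm1, which sequesters KEAP1, gave -0.04, and Dpp3, which also binds KEAP1, gave 0.19. Of the related factors, Nfe2 read 144 and 240 (0.74) and Nfe2l3 239 and 166 (-0.53). Bach2, another repressor, cleared background without LPS alone. Its control level was 1.98 times the lowest signal to clear background with LPS. That is not a firm bound on the difference, since some probes brighter than that lowest signal did not clear background.

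In glutathione supply and turnover, 21 of 23 genes were measured with a median of -0.01. Glrx, glutaredoxin, which uses glutathione to reduce protein disulfides, read 124 and 341 (1.46), and Ggt7, a gamma-glutamyltransferase family member, read 425 and 642 (0.59). Cth, which makes cysteine from cystathionine, was lowest at 337 and 230 (-0.55), and Chac1, which degrades glutathione, read 11291 and 8300 (-0.44). Of the thioredoxin-related genes, 22 of 24 were measured with a median of -0.03. Txnip, which binds and inhibits thioredoxin, read 556 and 209, a difference of -1.41 (2.67-fold lower), and was the 1 gene at least 1.5-fold lower among the 92 measured on both arrays. Sesn3, a sestrin, followed at -0.55, and the highest were Msra, a methionine sulfoxide reductase, and Tmx4, each at 0.25. The 15 genes of NADPH supply had a median of 0.11, with H6pd, the endoplasmic reticulum counterpart of G6pdx, highest at 1233 and 2654 (1.11), then Idh1 at 0.29, and the folate enzymes Mthfd2 (-0.42) and Aldh1l1 (-0.27) lowest.

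Other processing kept the main directions. Over 8 other ways of computing the values (background correction, scaling or choice of probe), 41 of the 49 genes kept their sign, and the 8 that did not were Cat, Gsta3, Mgst2, Prdx1, Prdx2, Prdx4, Prdx6 and Txnrd2. Median centring, the percentile of detected probes, spike-in scaling and the floored signal moved genes by 0.023 at most. Few signs could change under those settings, and every setting used the same arrays. Over all 8, Mgst1 ran from 2.29 to 2.85, Gstt1 from 1.59 to 1.87 and Sod2 from 1.02 to 1.09. Gstm1 ran from -0.74 to -0.68, Gstm2 from -0.76 to -0.59 and Gstm4 from -0.62 to -0.16.

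**Figure D4:**
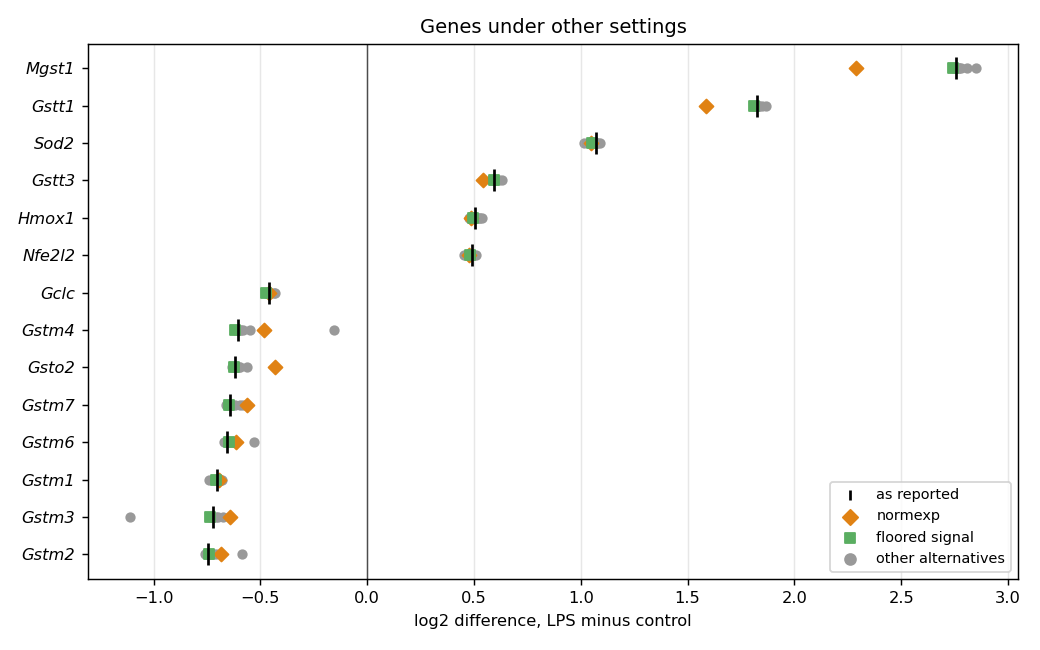
Log2 difference (LPS over control) of the genes past 1.5-fold and of Hmox1, Nfe2l2 and Gclc, with a black tick for the value reported here, orange diamonds for normexp, green squares for the floored signal and grey points for the other ways of processing. Mgst1 stays between 2.29 and 2.85, and Gstm4 reaches from -0.62 to -0.16.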

How the data were processed

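Total RNA was labelled with Cy3 and hybridised to 2 one-colour Agilent arrays with 60-base probes, 1 per group, assigned by the sample titles. The deposited values are, per the file headers, spot intensity readings that the authors took with Feature Extraction 10.10.1.1, whose processed intensity had been background-subtracted and detrended. Coordinates are those of mm9, per the file headers.

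Control spots and 223 of 59305 other spots marked as outliers were left out. The log2 processed intensity was set to a shared 75th percentile (before scaling, 649 for control and 629 for LPS). Spots of a probe were averaged, and a gene took its brightest probe. With 1 array per group no test was possible; size alone (1.5-fold and 2-fold) describes the genes. The spot SD is the median over probes of like brightness. Every gene of the set is named, and of each other pathway list the 2 highest, the 2 lowest and any at least 1.5-fold different. The members and lists were chosen with earlier results of these data known. Promoters are RefSeq's, build GRCm38.p6, and those coordinates were not mixed with mm9. Whether probes lie in exons or UTRs was not analysed here.

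The scripts, tested on simulated data, used Python 3.11.15, numpy 2.4.6, pandas 2.3.3, matplotlib 3.10.9, R 4.3.3 and limma 3.58.1. Alternatives changed the background correction (including limma's normexp with an offset of 50), scaling, choice of probe, background filter and gene symbols.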

Additional observations from a re-analysis of the deposited data

How the results depend on the processing

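No paired analysis was possible because each group has 1 array, and for the same reason no array could be left out. The count of genes at least 1.5-fold lower (7) was 4 with normexp background correction, 4 with the median over probes and 3 when genes dimmer than the median were left out. The shares of all genes so lower were 0.990%, 3.88% and 0.738%, against 2.67%. The Gstm genes among them (6) numbered 3 with the median over probes and 3 without those dimmer genes. With the median over probes, 1 gene (Gstm3) became at least 2-fold lower. With no background filter, 5 genes were at least 2-fold higher and 7 at least 1.5-fold higher, where the shares of all genes were 3.92% and 7.36%, against 1.46% and 3.59%. Without the dimmer genes the counts were 1 and 1, beside 0.925% and 2.16%. These changes follow from which probes or genes each setting admits, except under normexp, where the cause was not tested. Gstm4, close to the 1.5-fold limit, passed it neither with normexp, cyclic loess, spike-in scaling nor the median over probes. Gsto2 fell short with normexp and cyclic loess, Gstt3 with normexp and the percentile of detected probes, Gstm7 with normexp and the median over probes, and Gstm6 with the latter. The 4 alternatives on filters and symbols change only which genes count. The median of all measured genes stayed between -0.04 and 0.05. Updated symbols added 1 gene name to the set, which was not measured. Dim probes limit the precision: the spot SD was 0.14 in the dimmest of 4 brightness classes, and 8 genes could not be read at all.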
